A study of Bos taurus with 90 samples.

Results

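The 100 genes described here were chosen by the rise of their transcript level with follicle diameter in bovine oocytes. For every gene with a mean of at least 10 CPM (counts per 1000000 counts of the library) over 27 oocytes, Spearman's rho between CPM and the diameter of the follicle was computed, and the 100 genes with the highest rho were taken out of 8463 such genes, in a table of 27270 genes. The genes are listed by Ensembl identifier alone and no table used here pairs these with symbols, so only the 2 with the highest rho are given by identifier, and the others are called by their rank of rho. What each gene encodes, and its pathway and sequence, were therefore not analysed here.

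In the study, 30 antral follicles of cows were each taken apart into mural granulosa cells (MGCs), a pool of cumulus cells (CCs) and the single oocyte, and each of these gave 1 RNA-seq library. The ovaries came from a slaughterhouse, from at least 5 individuals, and some follicles may share an animal, so the spread between follicles is not always one between animals. No follicle was treated. A CC sample was a pool of about 30 cells that adhered tightly to the oocyte, and oocytes were single and denuded. Both were amplified by SMART-seq2, with 15 PCR cycles for oocytes and 12 for CCs, whereas MGCs were sequenced as standard bulk RNA, so a difference in level between MGCs and the other cell types cannot be told apart from the library method. The study left out 3 follicles (3.7, 7.0 and 7.1 mm) for mapping rate or mitochondrial share, and this choice was followed. The remaining 27 follicles were 9 small (3.1 to 3.8 mm), 8 medium (6.2 to 7.0 mm) and 10 large (9.6 to 11.6 mm), and they include follicles that the study set aside later as entering atresia. Among small follicles, the paper calls only 3 healthy by their transcripts and the others unhealthy. Follicle health was not a factor in the fits here, and its part in the rise was not tested. The CC column of a small follicle of 3.7 mm holds counts for few genes and was left out, which leaves 26 CC libraries.

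An oocyte in an antral follicle is arrested in prophase of meiosis. It stores transcripts and proteins that serve maturation and the first cleavages, and its transcription declines as it nears its final size. CCs reach the oocyte through transzonal projections that end in gap junctions, whereas MGCs line the wall of the follicle at a distance from it.

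Library totals ranged from 8442938 to 53173320 counts in oocytes, from 8760201 to 40180192 in CCs and from 26739954 to 39266980 in MGCs, with 10588 to 16641, 11872 to 18588 and 16211 to 18651 genes detected. Among the CC libraries, those of the small follicles of 3.1 and 3.8 mm (the 3.8 mm follicle with 14262 genes detected) stood apart, with a median Spearman rho to the other CC libraries of 0.685 and 0.748, and results in CCs are given with and without them. Labels were not checked against marker genes, which need symbols. As a description, 96 genes with a mean of at least 100 CPM in oocytes and under 0.1 CPM in MGCs were summed. They held 59109 to 85688 CPM in the 27 oocytes, 3.4 to 58.1 CPM in CCs and 0.748 to 4.04 CPM in MGCs. The genes were picked by the labels of these same libraries. High sums in oocytes and low sums in MGCs thus follow from the choice and check no label, whereas CC libraries were not used in it.

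Across the 100 genes, rho with diameter in oocytes lay between 0.639 and 0.839, with a median of 0.671. These values selected the genes and are given as a description. Just inside the limit, the genes ranked 98, 99 and 100 had rho of 0.640, 0.639 and 0.639, and just outside it the next 3 genes had 0.638 each, so the limit does not fall in a gap. At the other end of the scale, 40 genes had rho as far below 0 as 0.639 is above it. With the diameters shuffled among the 27 oocytes 100 times, the 100th-highest rho lay between 0.348 and 0.570, with a median of 0.412, and a median of 1 gene, and at most 27, reached 0.639.

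The diameters fall into 3 separate groups, and the rise is one between these groups. Within the 9 small oocytes, the median rho of the 100 genes was 0.0042, within the 8 medium oocytes -0.0062 and within the 10 large oocytes 0.107, beside medians of -0.0084, -0.012 and -0.031 over all 8463 genes. Within a size class the 100 genes therefore spread around no relation with diameter, as all 8463 genes did, with the large class slightly to the positive side.

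**Figure D1:**
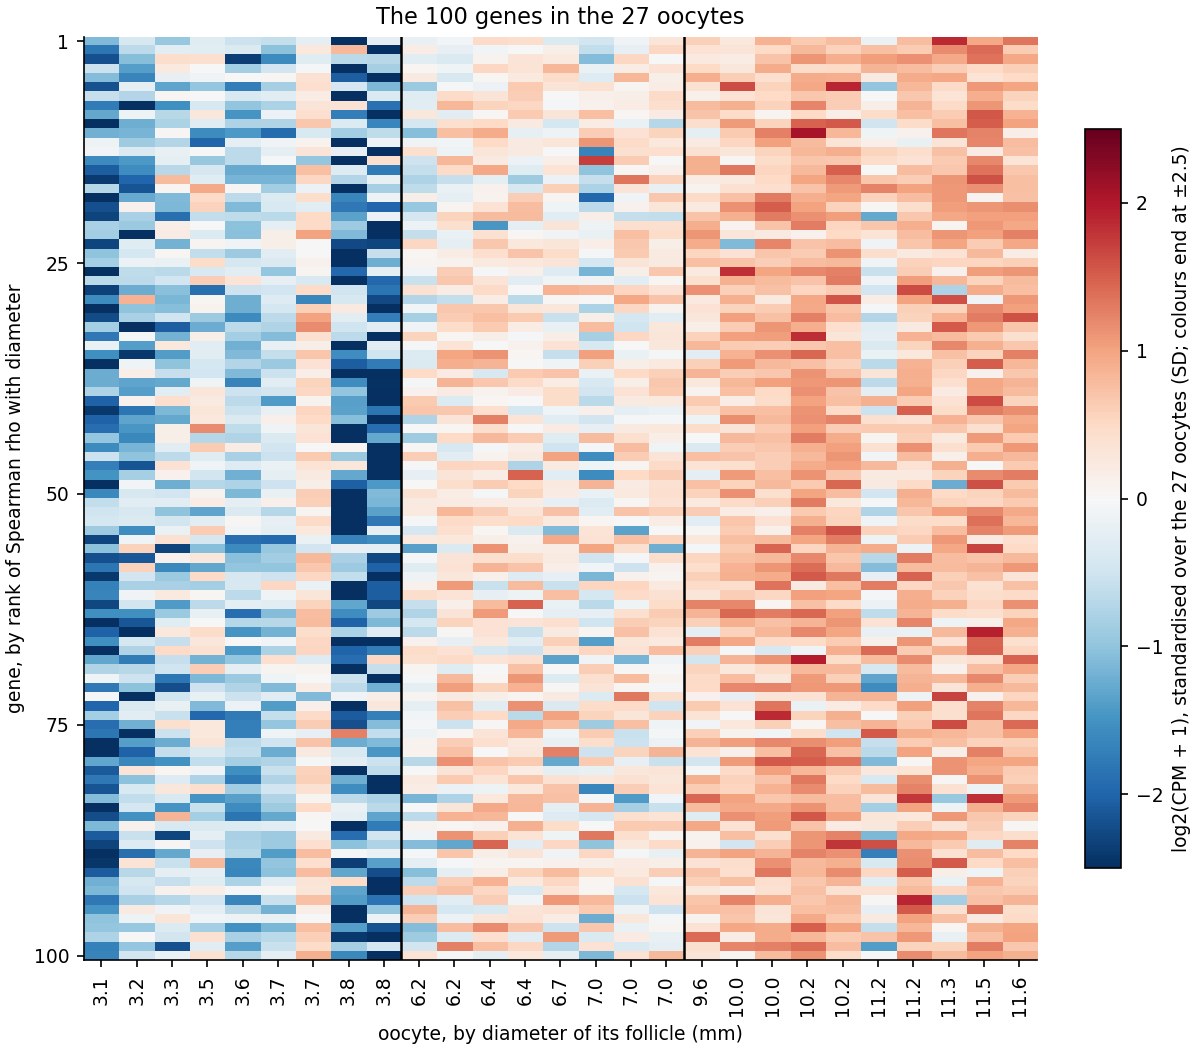
Each row is 1 of the 100 genes, ordered by rank of rho, and each column is 1 of the 27 oocytes, ordered by follicle diameter in mm, with black lines between the small, medium and large classes. Colour gives log2(CPM + 1) standardised for each gene over the 27 oocytes (in SD). The 3.1 mm column and the pair of 3.8 mm columns are the darkest blue, and most columns of the large class are red, with the first 11.2 mm column paler than its neighbours.

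All 100 genes had a higher mean CPM in medium than in small oocytes and a higher mean in large than in medium oocytes. The ratio of the large to the small mean ranged from 1.34 to 4.51, with a median of 1.99, and 49 genes reached a ratio of 2. On the log2 scale the median step was 0.58 between the small and medium classes and 0.39 between the medium and large ones, and the first step was the larger in 71 genes. Over all 8463 genes the median first step was 0.14 (62.7% above 0) and the second -0.01 (49.1% above 0), so the larger first step is shared with the other genes and is not read as a trait of the 100.

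Summed over the 100 genes, oocytes of small follicles held 6226, 8988 and 14670 CPM (lowest, median and highest of 9). In medium follicles the sum was 11583, 13679 and 16012 CPM (of 8), and in large follicles 12582, 18015 and 21392 CPM (of 10). As means, these were 9625 ± 2503, 13797 ± 1469 and 17714 ± 2424 CPM (SD, n = 9, 8 and 10). Neighbouring classes overlap, and small and large oocytes overlap through the highest small one (3.7 mm) and the lowest large one (11.2 mm). Oocytes of 3.1 and 3.8 mm gave the lowest sums, 6226 and 7339 CPM, and they came from the same follicles as the CC pools that stood apart.

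**Figure D2:**
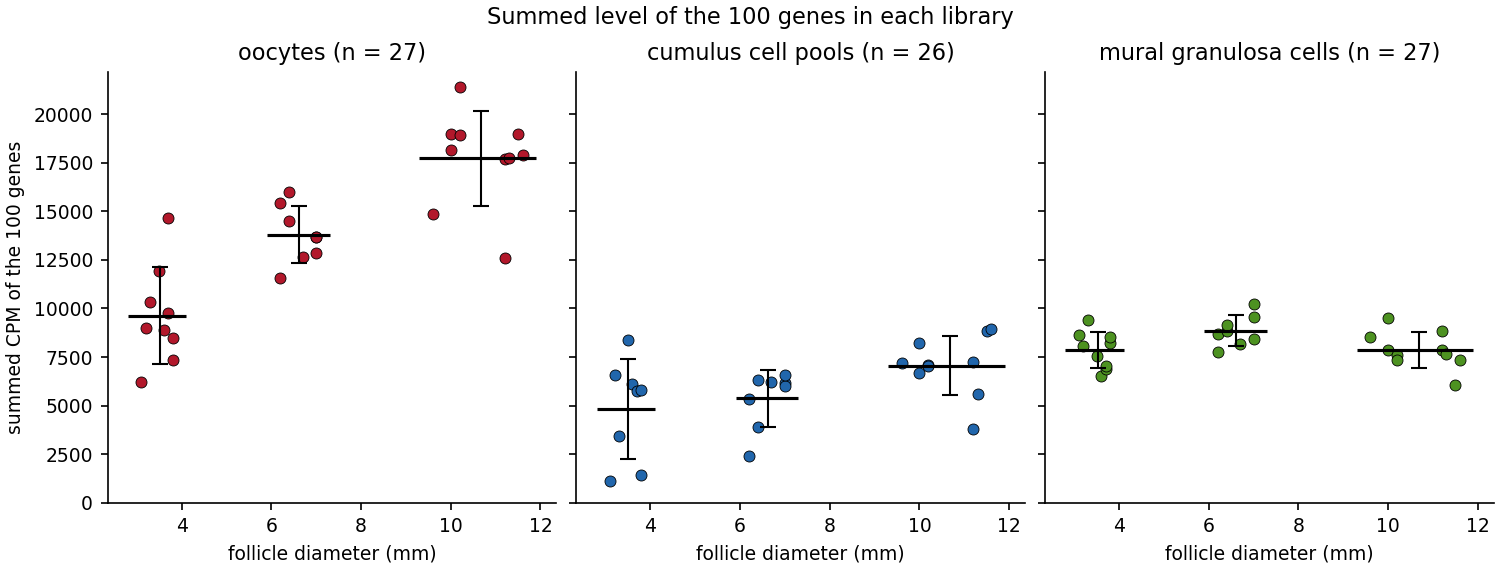
Points give the summed CPM of the 100 genes (vertical axis, from 0) against follicle diameter in mm for 27 oocytes, 26 CC pools and 27 MGC samples. Horizontal lines are class means and bars are 1 SD. Oocyte means step from 9625 to 13797 and 17714 CPM, CC means go from 4826 to 7064 CPM between small and large follicles with wide overlap, and MGC means stay between 7863 and 8853 CPM.

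Gene detection differed between the oocytes too, and its part in these sums was not tested. The median number of genes detected was 15025, 15860 and 15384 in small, medium and large oocytes, and rho with diameter over the 27 oocytes was 0.179 for genes detected and -0.183 for the total count (as a description, since the diameters fall into 3 groups). The 3 oocytes with the fewest genes detected were of 3.8, 3.8 and 11.5 mm (10588, 12026 and 11861 genes), and the 3.8 mm pair lacked counts for 7 and 6 of the 100 genes. Ranked over the other 24 oocytes, 64 of the 100 genes stayed among the 100 with the highest rho, a ranking added after the data were seen. Leaving out any 1 oocyte kept 63 to 93 of them, and rho of the 100 genes stayed at 0.597 or above.

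The 3 follicles left out give oocytes that the choice did not use. The removed small oocyte (3.7 mm) had 13229 CPM in sum, above 8 of the 9 retained small ones, and it exceeded the mean of the small class in 88 of the 100 genes and the mean of the large class in 25. The removed medium oocytes (7.0 and 7.1 mm) had 10182 and 10347 CPM, below all 8 retained medium ones, with 72 and 85 of the 100 genes detected and 6770 and 9524 genes detected in all. The small one thus lay high within the range of its class and the medium ones below theirs.

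ENSBTAG00000007031 had the highest rho, 0.839. Its level in small oocytes was 17.2, 56.4 and 63.0 CPM (lowest, median and highest), in medium oocytes 58.1, 67.3 and 83.3 CPM and in large oocytes 65.1, 92.7 and 140 CPM. Every large oocyte lay above every small one, although the gap from 63.0 to 65.1 CPM is narrow, and the lowest value came from a 3.8 mm follicle. The class means were 52.2 ± 14.6, 70.0 ± 9.75 and 95.5 ± 20.6 CPM (SD, n = 9, 8 and 10), a ratio of 1.83 between large and small. Its level was far lower in the other cell types, at 0.317 to 22.4 CPM in CCs and 3.87 to 15.4 CPM in MGCs. The slope with diameter was 0.06 ± 0.06 log2 per mm (SE) in CCs and 0.01 ± 0.04 in MGCs, with adjusted p of 0.598 and 0.956 from edgeR, so no change with diameter was detected there.

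ENSBTAG00000002748 came second with rho of 0.785. Small oocytes had 9.19, 55.6 and 104 CPM (lowest, median and highest), medium oocytes 48.98, 66.7 and 89.2 CPM and large oocytes 80.4, 95.3 and 143 CPM. The highest and the lowest small value, 104 and 9.19 CPM, both came from 3.8 mm follicles, so small and large oocytes overlap through 1 small oocyte. This gene was also expressed in CCs, at 0.19 to 62.2 CPM, and in MGCs, at 23.2 to 65.6 CPM. Its slope was 0.07 ± 0.06 log2 per mm in CCs and 0.07 ± 0.03 in MGCs (SE), with adjusted p of 0.534 and 0.0834 from edgeR. Within the 10 large oocytes its rho was 0.777.

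**Figure D3:**
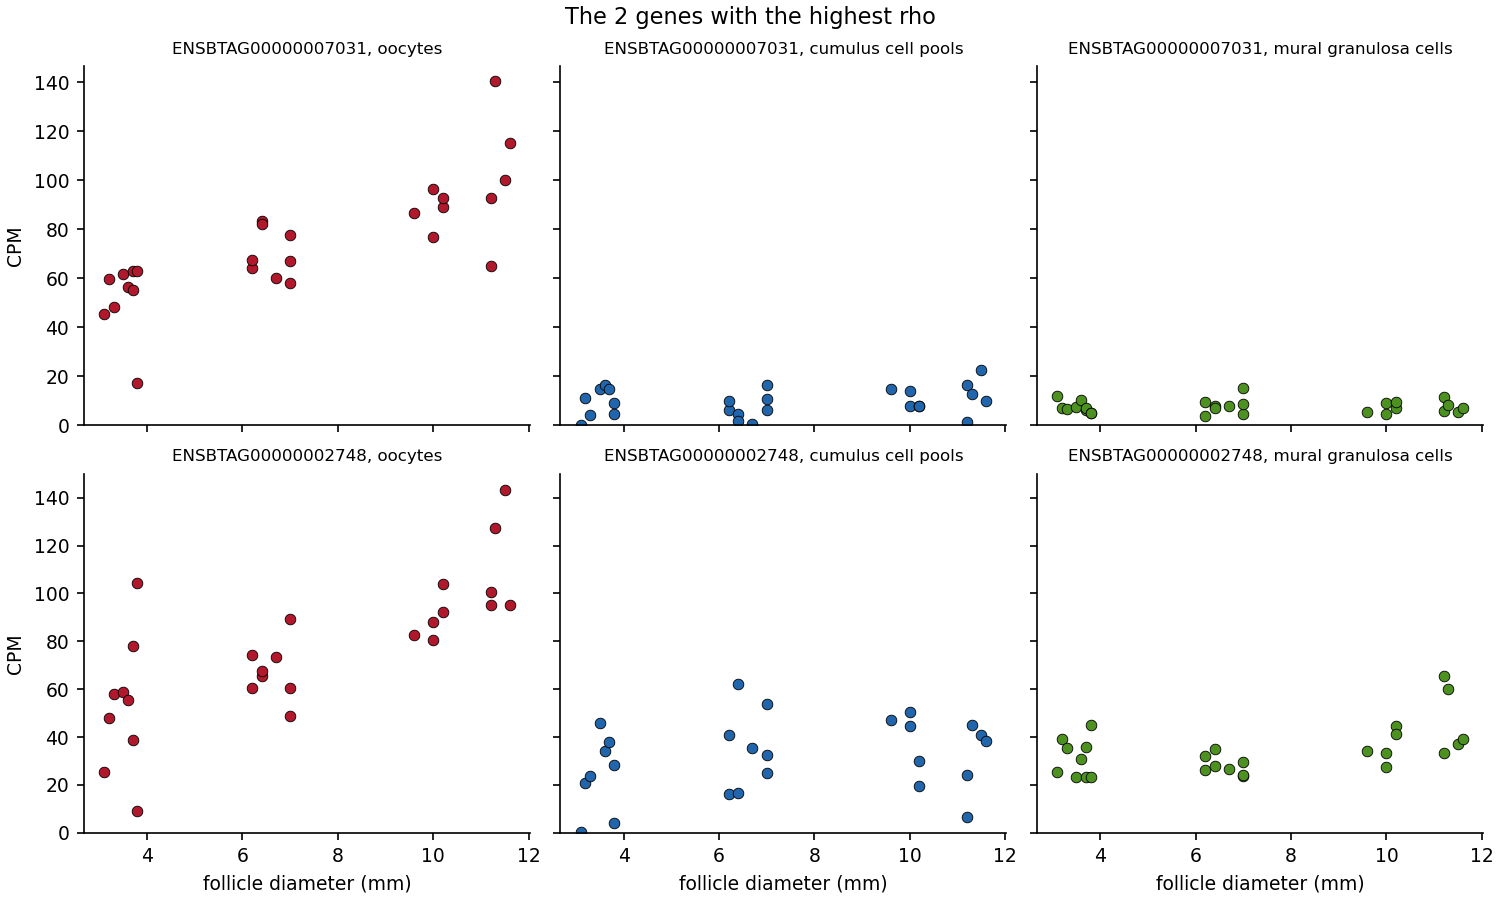
CPM (vertical axis, from 0) of ENSBTAG00000007031 and ENSBTAG00000002748 against follicle diameter in mm, 1 point per library, in 27 oocytes, 26 CC pools and 27 MGC samples. For the upper gene the large oocytes begin at 65.1 CPM, above the highest small one at 63.0 CPM, and CC and MGC points stay at or below 22.4 CPM.

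Besides ENSBTAG00000007031, only the genes ranked 4 and 24 kept small and large oocytes fully apart. The gene ranked 4 had 0 to 25.9 CPM in small and 26.8 to 43.7 CPM in large oocytes, and the gene ranked 24 had 7.76 to 78.5 and 84.2 to 138 CPM. Such a separation occurred in 5 of the 8463 genes (0.0591%), which uses the same values as the choice of the genes. In the other 97 genes at least 1 small oocyte reached into the range of the large ones.

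The 100 genes covered a wide range of abundance, from 10.3 to 1211 CPM as a mean over the 27 oocytes, with a median of 66.6 CPM beside 48.4 CPM over the 8463 genes. The most abundant, ranked 42, had 939 ± 290 CPM in small, 1200 ± 236 in medium and 1466 ± 181 in large oocytes (SD, n = 9, 8 and 10), with 2.43 CPM in CCs and 3.47 CPM in MGCs. Next came the gene ranked 11, with 670 ± 163, 1079 ± 245 and 1324 ± 392 CPM, which was abundant in CCs and MGCs too, at 553 and 674 CPM. The gene ranked 85 had 621 ± 286, 925 ± 226 and 1196 ± 267 CPM, with means of 0.142 CPM in CCs and 0.0307 CPM in MGCs. Among the most abundant genes there were thus both transcripts of the oocyte and transcripts shared by the follicle.

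The largest ratios belonged to genes with low levels in small oocytes. The gene ranked 37 had 0, 11.3 and 27.2 CPM in small oocytes (lowest, median and highest), 13.7, 39.8 and 51.7 CPM in medium and 25.1, 48.96 and 82.7 CPM in large ones, a ratio of 4.51. For the gene ranked 23 these were 0, 6.99 and 11.7 CPM, then 7.79, 13.8 and 21.2 CPM, then 2.48, 22.7 and 37.9 CPM, a ratio of 3.96. Small oocytes without a count add to such ratios: 13 of the 100 genes had no count in at least 1 of the 27 oocytes, in 14 values in all.

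With edgeR's quasi-likelihood test on the counts (slope over diameter in log2 per mm, p adjusted by the Benjamini-Hochberg method over the 14936 genes tested in oocytes), 65 of the 100 genes passed an adjusted p of 0.05 with a rise, beside 2.06% of the 8463 genes. This is the contrast that chose them, so nothing is read from the count. Their slopes ran from 0.05 to 0.27 log2 per mm, with a median of 0.12. When the leading 3 digits of each follicle's identifier were a covariate, none of the 100 passed, beside 0% of the 8463 genes. All 100 slopes were above 0 with a median of 0.10, beside 53.1% and a median of 0.00. The same oocytes chose the genes, so nothing is read from these slopes either. What these digits stand for is not given in the sources used here. They take 11 values among 27 follicles. The paper states that samples were collected in several independent batches. The labels do not name the batch of a follicle, so batch was not tested.

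The CC and MGC libraries were not used in the choice, but they come from the same follicles as the oocytes that were. Within size classes, the deviations of oocyte and CCs of one follicle went the same way more often than not (r above 0 in 73.7% of 8460 genes), and the CC pools that stood apart belong to the oocytes with the lowest sums. The CC values are therefore not independent of the choice, and the shares over all genes beside them are a background and not the share to be had without a relation. In CCs, rho with diameter was above 0 for 91 of the 100 genes, with a median of 0.331, beside 51.0% and a median of 0.0068 over the genes with a mean of 10 CPM in oocytes. In MGCs it was above 0 for 45 of 99 genes, with a median of -0.024, beside 49.99% and a median of 0 (1 gene had no count in MGCs). The genes that rose in oocytes thus leaned upwards with diameter in CCs and lay around 0 in MGCs. Members are not replicates, and each of these figures rests on the same 26 or 27 libraries.

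**Figure D4:**
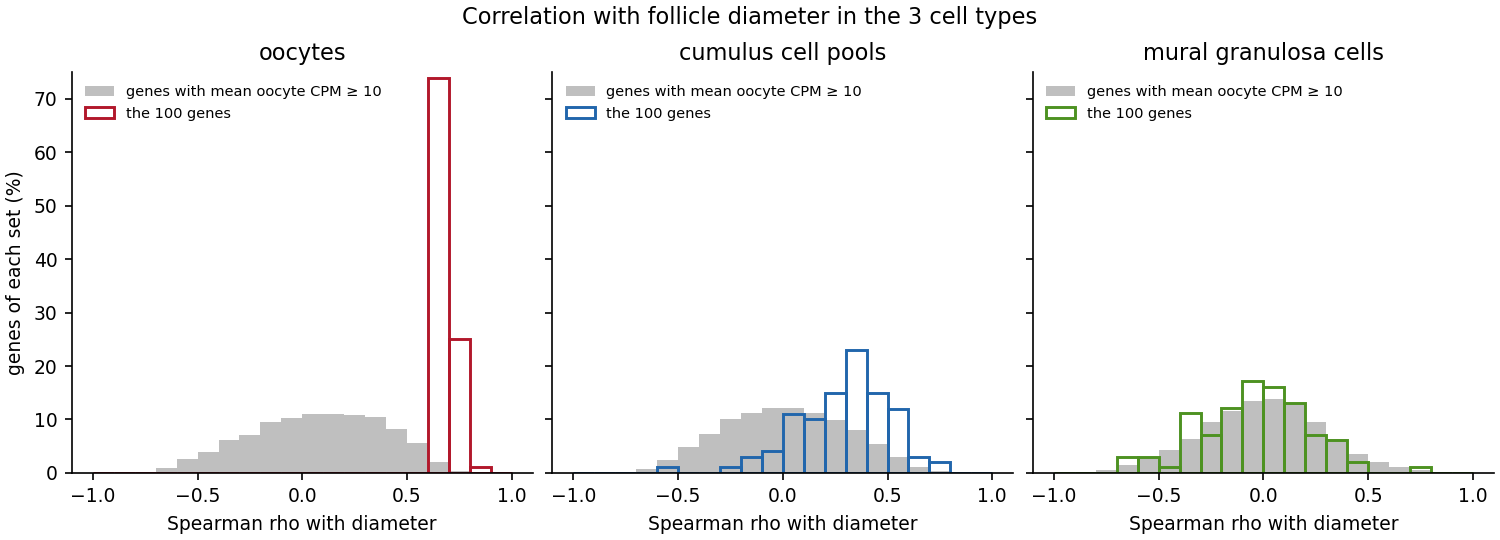
Histograms of Spearman's rho between CPM and follicle diameter, in bins of 0.1, as the percentage of each set of genes, for oocytes, CC pools and MGCs. Grey bars are the genes with a mean of at least 10 CPM in oocytes and outlined bars are the 100 genes. The oocyte values were used to choose them, the CC outline is shifted to the right with a median of 0.331, and the MGC outline lies over the grey bars with a median of -0.024.

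By edgeR's test of the slope in CCs, 7 of the 100 genes rose with an adjusted p under 0.05, beside 2.19% of the 8460 genes tested with a mean of 10 CPM in oocytes, and 1 fell, beside 3.61%. At an unadjusted p under 0.05, 34 rose and 1 fell, beside 10.2% and 14.6%. The slope was above 0 in 93 of the 100 genes (50.4% of the genes tested), with a median of 0.10 log2 per mm beside 0.00. Without both CC libraries that stood apart, an alternative added after the data were seen, 77 slopes were above 0 (48.0% of the genes tested). The median was 0.06, and by edgeR 2 genes rose (beside 0.65%) and 0 fell (beside 0.0709%). With the identifier digits as a covariate, 78 slopes were above 0 (48.6%) and the median was 0.07. By edgeR 2 genes then rose (beside 0.248%) and 0 fell (beside 0.0709%). The upward lean of the list was smaller but present in both, while most single calls in CCs were lost.

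Calls in CCs also rested on single libraries. Leaving out the large follicle of 11.5 mm left 4 rising genes, beside 1.26% of the genes tested, whereas 17 rose (beside 3.24%) without the 11.2 mm follicle with the low sum (3789 CPM in CCs) and 14 rose (beside 2.98%) without the small follicle of 3.5 mm (8390 CPM in CCs). The 1 fall was lost in 18 of the 26 fits that leave out a library. In bulk or pooled samples, fewer cells of a type and less RNA per cell cannot be told apart.

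The gene ranked 100 had the steepest slope of the 7 that rose in CCs. It had 0.552, 9.49 and 17.1 CPM in CCs of small follicles (lowest, median and highest of 8), 1.71, 24.7 and 102 CPM in medium (of 8) and 11.5, 32.7 and 120 CPM in large follicles (of 10). Low values dominate the small class, but the classes overlap. Its slope was 0.36 ± 0.08 log2 per mm (SE, adjusted p = 0.0114 from edgeR), and the adjusted p was 0.0314 without the libraries that stood apart and 0.0309 with the identifier digits. In MGCs its slope was 0.06 ± 0.05 (adjusted p = 0.551 from edgeR), and in oocytes its class means were 317 ± 146, 406 ± 93.2 and 530 ± 93.2 CPM (SD, n = 9, 8 and 10).

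The gene ranked 21 was the other one that passed in all 3 of these CC fits. CCs of small follicles had 0.856, 17.3 and 23.6 CPM (lowest, median and highest), those of medium follicles 12.8, 21.1 and 71.2 CPM and those of large follicles 25.3, 35.0 and 98.4 CPM, so every large follicle lay above every small one. Its slope was 0.26 ± 0.06 log2 per mm (SE, adjusted p = 0.0145 from edgeR, and 0.0314 and 0.0224 in the other fits). In MGCs it was expressed at 22.8 to 57.4 CPM with a slope of -0.03 ± 0.02 (adjusted p = 0.497 from edgeR). The difference between both slopes was itself past the threshold, at 0.29 ± 0.07 (adjusted p = 0.00889 from edgeR).

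Of the other genes that rose in CCs, those ranked 19, 25, 53, 61 and 82 had slopes between 0.17 and 0.32 log2 per mm, with adjusted p between 0.0185 and 0.0441 from edgeR. None of these 5 passed without the libraries that stood apart or with the identifier digits. As an example, the gene ranked 61 had CC means of 8.77 ± 5.27, 17.1 ± 12.4 and 30.1 ± 12.2 CPM (SD, n = 8, 8 and 10). The fall was that of the gene ranked 14, from 35.9 ± 11.1 to 33.2 ± 6.24 and 26.03 ± 11.1 CPM (slope of -0.11 ± 0.03, SE, adjusted p = 0.0467 from edgeR), which is the opposite direction to its rise in oocytes. It was lost without the libraries that stood apart (adjusted p = 0.184).

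Oocyte transcripts in the CC pools were followed through the 96 genes named above. Their sum in CCs was 5.09, 14.3 and 58.1 CPM in small follicles (lowest, median and highest), 8.93, 19.8 and 41.4 CPM in medium and 3.40, 13.5 and 25.3 CPM in large follicles, and its rho with diameter was -0.056. In the oocytes themselves the mean sum of these 96 genes was 76119, 67899 and 66460 CPM in small, medium and large follicles. Of the 100 genes, 1 is among these 96. The part of oocyte transcripts in the CC slopes was not tested. Genes detected in CCs had a rho of 0.274 with diameter (medians of 15188, 16370 and 15942 genes in small, medium and large follicles), and the part of gene detection in the slopes was not tested.

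In MGCs, 99 of the 100 genes could be tested, of which 1 rose with an adjusted p under 0.05 from edgeR, beside 4.21% of the 8380 genes tested with a mean of 10 CPM in oocytes, and 5 fell, beside 3.78%. Slopes were above 0 in 54 of 99 genes, with a median of 0.00 log2 per mm for both sets. These shares are close to those of the other genes, so the 99 genes did not stand out in MGCs.

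The rise was that of the gene ranked 44, a gene more abundant in MGCs than in oocytes. It had 91.6, 129 and 143 CPM in MGCs of small follicles (lowest, median and highest), 124, 162 and 227 CPM in medium and 139, 183 and 276 CPM in large follicles, with overlap between neighbouring classes. Its slope was 0.10 ± 0.02 log2 per mm (SE, adjusted p = 0.0121 from edgeR), and 0.15 with the identifier digits (adjusted p = 0.000324). In oocytes it went from 14.0 ± 11.9 to 37.5 ± 17.2 and 52.1 ± 21.1 CPM, and in CCs its slope was 0.17 ± 0.05 (adjusted p = 0.0505 from edgeR).

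Among the falls in MGCs, the gene ranked 59 went from 32.0 to 18.1 and 11.6 CPM as class medians (range 4.69 to 78.7 in small and 6.64 to 23.4 in large follicles), with a slope of -0.19 ± 0.04 log2 per mm (SE, adjusted p = 0.00331 from edgeR). It had 172 CPM in oocytes and 0.668 CPM in CCs. The gene ranked 29 fell from 2.56 ± 1.503 to 0.358 ± 0.364 CPM between small and large follicles (adjusted p = 0.00858), and those ranked 87 and 88 fell from 151 ± 43.6 to 104 ± 7.92 CPM and from 32.7 ± 11.0 to 19.4 ± 10.3 CPM (adjusted p = 0.0275 and 0.0383). The call for the gene ranked 85 rests on a few counts, since its median was 0 CPM in every class. With the identifier digits 6 genes fell, beside 6.66% of the genes tested, of which the gene ranked 85 was the only one that also fell without them, and 3 rose, beside 11.8%.

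**Figure D5:**
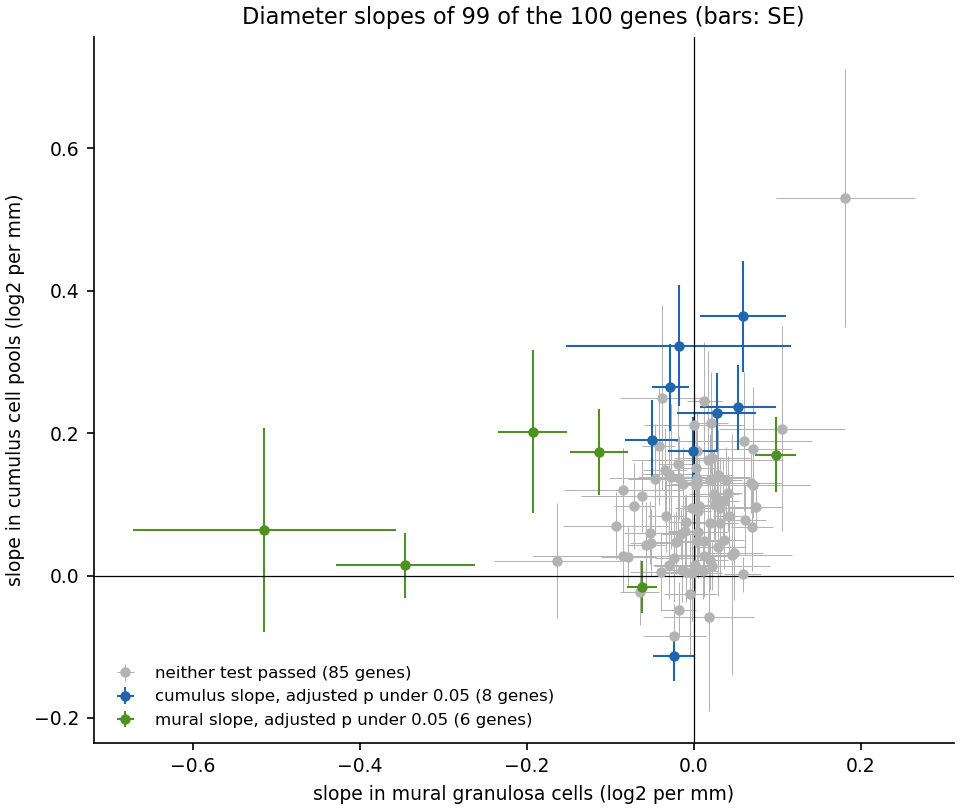
Slope with follicle diameter in CC pools (vertical axis) against that in MGCs (horizontal axis), both in log2 per mm, for 99 of the 100 genes, with bars of 1 SE. Blue points passed the test in CCs (8 genes, 7 above 0 and 1 below), green points passed in MGCs (6 genes) and grey points in neither (85 genes). Most points lie above the horizontal zero line and on either side of the vertical one.

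The slopes in CCs and MGCs of the same follicles were compared directly by an interaction term, in a fit that did not pair the libraries of a follicle. For 5 of the 100 genes the slope was higher in CCs with an adjusted p under 0.05 from edgeR, beside 1.74% of the 8461 genes, and for 0 it was lower. At an unadjusted p under 0.05 these were 28 and 1, beside 10.2% and 12.9%. The median difference over the 100 genes was 0.10 log2 per mm, beside 0.00. The 5 genes were those ranked 21, 25, 29, 59 and 88. In the genes ranked 29, 59 and 88 it was the fall in MGCs that passed its own test, whereas the CC slopes of 0.01 ± 0.05, 0.20 ± 0.11 and 0.17 ± 0.06 (SE) did not, and in those ranked 21 and 25 it was the rise in CCs.

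The levels of the 100 genes in oocytes were next set against those in CCs and MGCs. The choice required a mean of at least 10 CPM in oocytes, which favours genes high in oocytes. The 8463 genes share this minimum, so the counts are read only beside theirs. Over 26 follicles, 60 of the 100 were higher in oocytes than in CCs with an adjusted p under 0.05 from edgeR, beside 52.7% of the 8463 genes, and 20 were lower, beside 30%. The median log2 ratio was 0.84, beside 0.59 (0.67 beside 0.44 with DESeq2's size factors). Over 27 follicles, 46 were higher in oocytes than in MGCs, beside 54.2%, and 25 were lower, beside 32.4%, with a median log2 ratio of 0.24 beside 0.60. With DESeq2's size factors in place of TMM, the median over the 8463 genes moved from 0.60 to 0.20. That of the 100 genes moved from 0.24 to -0.16, and 41 were higher (beside 47.3%) and 41 lower (beside 40.2%). The direction of the list against MGCs thus depends on the scaling, which shifted all 8463 genes. With TMM, 44 genes were higher in oocytes than in both other cell types (43.9% of the 8463) and 18 were lower than in both (22.1%).

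Examples from both ends show how unlike the levels of these genes were. The gene ranked 85 was the most restricted to oocytes against CCs, with a log2 ratio of 12.25 ± 0.37 (SE, adjusted p = 5.51e-36 from edgeR). Those ranked 41 and 42 followed with log2 ratios of 8.89 ± 0.52 and 8.55 ± 0.36 (adjusted p = 8.26e-23 and 4.51e-29), and the gene ranked 80 had 23.0 CPM in oocytes, 0.0284 CPM in CCs and no count in any of the 27 MGC libraries. The gene ranked 55 was at the other end, at 40.3 CPM in oocytes, 379 CPM in CCs and 1486 CPM in MGCs, with a log2 ratio of -3.56 ± 0.31 against CCs (SE, adjusted p = 6.53e-16 from edgeR). In oocytes that gene rose from 17.7 ± 13.8 to 46.3 ± 11.6 and 55.9 ± 18.5 CPM, while in MGCs its class means were 1547 ± 479, 1360 ± 219 and 1532 ± 322 CPM. The gene ranked 9 was at 30.5 CPM in oocytes and 26.6 CPM in MGCs but at 0.388 CPM in CCs.

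The 100 genes also varied together among oocytes of one size class. After the class means were subtracted from log2(CPM + 1), the median Pearson r over the 4950 pairs of the 100 genes was 0.332 across the 27 oocytes, and 87.5% of pairs were above 0. Pairs of the other genes had a median of 0.021, with 52.6% above 0, and pairs of 1 of the 100 genes with another gene had 0.068. These points share their libraries, depth and the scaling to the library total, and the genes were chosen over the same oocytes, so this is a description. An oocyte with low levels of some of these genes for its class tended to be low in others.

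Between oocyte and CCs of the same follicle, r of the same deviations over 26 follicles had a median of 0.317 for the 100 genes, with 87 above 0. Over 8460 genes the median was 0.158, with 73.7% above 0. The 100 genes were chosen over the same oocytes, so this too is a description. Between oocyte and MGCs of the same follicle the median was -0.058 over 99 genes, beside -0.001. Oocytes and CCs share the follicle and the amplification method, while MGCs share only the follicle, and the part of either was not tested.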

How the data were processed

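The deposited file holds whole-number counts per gene without normalization, which the authors made for 90 libraries (30 follicles, 3 cell types). The paper's methods name STAR and ARS-UCD1.2, and the submitters' processing notes HISAT2 2.2.1, both with featureCounts, and which aligner made the counts was not settled here. In the median oocyte library 66.1% of counts from 1 to 20 were even, so both mates of a read pair may have been counted. Samples were grouped by the cell type and size class in the labels. The labels hold no diameter in mm, and the diameters were taken from the paper's supplement.

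Members, lists and tests were chosen with earlier results of these data known. CPM used column totals. Slopes (diameter in mm as a number) and differences between cell types were tested by edgeR 4.0.16 (TMM, glmQLFit, glmQLFTest, R 4.3.3) over genes with more than 1 CPM in at least 15 libraries of any one cell type, with Benjamini-Hochberg adjustment and a threshold of 0.05. Fits were tested on simulated data. DESeq2 1.42.0 was an alternative. Python 3.11.15, numpy 2.4.6, scipy 1.17.1 and pandas 2.3.3 did the rest, with seed 1. Named genes were those with the highest rho, the most abundant, the most changed, those most unlike between oocytes and CCs and those past a test, and the genes ranked 4, 9 and 24 were added after their values were seen. The planned naming by symbol and gene lists were not used here, since identifiers could not be paired with symbols. MGCs, CCs and the oocyte of a follicle are paired by the study. After class means were subtracted, r over genes between oocyte and CCs of one follicle ranged from -0.0887 to 0.424 (median 0.139). Counts are of reads, not molecules, since no molecular identifiers were used.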

Additional observations from a re-analysis of the deposited data

Results flagged for a closer look

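In small follicles, the lowest oocyte value of ENSBTAG00000007031, 17.2 CPM in a follicle of 3.8 mm, lay far below the other 8 small oocytes, which ran from 45.5 to 63.0 CPM. The same library had the fewest genes detected of the 27 oocytes (10588). Of the groups of 4 to 10 libraries examined in this way there were 27, and chance flags about 1 in 20 groups.

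For 5 of the 100 genes the slope with diameter differed between CCs and MGCs by the interaction test, higher in CCs in all 5 (adjusted p from edgeR between 0.00889 and 0.0272). The 5 stand beside 1.74% of the genes with a mean of 10 CPM in oocytes. With the follicle as replicate block the count was 4, beside 0.898%.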

How the results depend on the processing

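Counts of rising genes in CCs (7, beside 2.19% of the genes with a mean of 10 CPM in oocytes) were 18 with DESeq2's Wald test (beside 4.86%), 2 with the identifier digits as a covariate (0.248%), 1 with the incomplete column kept (0.284%), 4 for large against small follicles (1.05%), 2 (0.65%) without the libraries that stood apart, and 4 to 17 when each library was left out. The 1 falling gene was 0 under all of these but DESeq2, and also 0 with all 30 follicles or no filter, and 0 to 1 when each library was left out. In MGCs, the 1 rising gene (beside 4.21%) became 2 with DESeq2's Wald test (5.42%), 3 with the digits (11.8%) and 0 to 2 when each library was left out (0 without the 11.6 mm follicle, 2 without a 3.2 mm or a 3.8 mm follicle). The 5 falling genes were 3 to 6 when each was left out, with 3 without the 3.5 mm follicle or any 1 of 5 large follicles. In oocytes, the 65 rising genes (beside 2.06%) were 7 with all 30 follicles (0.0945%) and 0 with the digits (0%). Against MGCs, the 25 lower genes (beside 32.4%) were 41 with DESeq2's size factors (40.2%) and 42 with its Wald test (40.4%).

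Of the 100 genes, 60 were kept when ranked by Pearson r on log2(CPM + 1), 62 with a mean of at least 50 CPM, 62 with all 30 follicles, 42 with ranks centred within the identifier digits, 64 without the 3 oocytes with the fewest genes detected, and 63 to 93 when each oocyte was left out (63 without the 11.3 mm, 64 without an 11.2 mm and 66 without the 3.5 mm follicle). With TMM, size factors or a mean of at least 1 CPM, 85, 81 and 89 were kept.

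With the follicle as replicate block, 60 genes were higher (beside 54.1%) and 18 lower (beside 28.6%) in oocytes than in CCs. Against MGCs, 45 were higher (beside 53.8%) and 25 lower (beside 32%), and 4 had a higher slope in CCs than in MGCs (beside 0.898%). The block moved none of these counts by more than 1.5 times. Other counts of calls moved by less than 1.5 times. Cause was not tested for any of these changes. Depth limits the genes near 0 CPM in CCs and MGCs.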
